A study of Chlorella variabilis with 6 samples.

Results

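Transcript counts of 4 genes that act at the start of DNA replication in the green microalga Chlorella variabilis NC64A were examined, out of 9625 genes counted in the series. They are CHLNCDRAFT_139139, listed as origin recognition complex subunit 1, and CHLNCDRAFT_28165, CHLNCDRAFT_34202 and CHLNCDRAFT_25737, each listed as DNA helicase. The 4 genes were picked by locus from genes that the study had called upregulated in LOG OX1 on these same libraries. Their difference between LOG OX1 and WT is therefore given as a description, without a test. All 4 were found in the name column of the 6 count tables.

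LOG OX1 is 1 transgenic line in which CvarLOG1, the cytokinin-activating gene LONELY GUY of this alga, was introduced by electroporation under a constitutive promoter, with hygromycin for selection. WT is the untransformed NC64A strain, and no line with an empty vector was among the sequenced cultures. RNA was taken from 3 LOG OX1 and 3 WT cultures, described as biological replicates, at 14 dpi (days post inoculation) and 1 h before the dark phase. Total counts were 10180885 to 12444029 in LOG OX1 and 10743741 to 12546100 in WT, and CvarLOG1 itself (CHLNCDRAFT_28106) averaged 437 ± 27.4 normalized counts in LOG OX1 and 240 ± 22.8 in WT (SD, n = 3 each), with reads of the introduced and native copies counted together.

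In eukaryotes, the origin recognition complex binds the sites where replication will start and helps to load the MCM helicase, a ring of related ATPases, onto the DNA. Once activated, the ring travels ahead of the replication fork and unwinds the parental strands so that primase and the DNA polymerases can copy them. In green algae that divide under light and dark cycles, genes of this machinery are known for being expressed around S phase. The origin gene carries the pathway term for DNA replication proteins in the study's gene table. The 3 helicase genes carry that term too. Among the genes under the DNA replication terms of that table, only these 3 have the MCM complex as a gene ontology term. The rest of the table was not searched for it. These names were assigned by the study from similarity to proteins of a brown alga, Ectocarpus siliculosus, and the table does not say which MCM subunit each locus encodes.

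The study also measured a gene called DNA helicase by quantitative PCR, with the primer pair shown here because it is the designed sequence that belongs to this group of genes.
DNA Helicase F: tgtgcattgacgagttcgac
DNA Helicase R: gcattcagtgagcacatgatcc
The forward primer has 20 bases and the reverse primer 22, with 10 and 11 bases that are G or C. No part is set in capitals, and which of the 3 helicase loci the pair amplifies was not analysed here. The paper reports that quantitative PCR also showed the differential expression of selected genes of the DNA replication pathway.

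The origin gene had higher counts in LOG OX1, with the smallest difference of the 4 genes. CHLNCDRAFT_139139, whose product in other eukaryotes is the large ATPase subunit of the origin recognition complex, had 561, 748 and 576 raw counts in LOG OX1 replicates 1, 2 and 3, against 377, 345 and 362 in WT replicates 1, 2 and 3. After scaling each library to the mean effective library size, these were 617, 689 and 648 normalized counts in LOG OX1 and 393, 328 and 327 in WT. The groups did not overlap, and WT replicate 1 stood above the other WT libraries. The means were 651 ± 36.4 in LOG OX1 and 349.6 ± 37.9 in WT (SD, n = 3 each), 1.87-fold or 0.90 on the log2 scale (standard error 0.077). The lowest LOG OX1 library was 1.57 times the highest WT library.

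CHLNCDRAFT_28165 was the helicase gene with the smallest difference, still larger than that of the origin gene. Its raw counts were 707, 902 and 716 in LOG OX1, against 333, 343 and 415 in WT, and its normalized counts were 777, 831 and 806 in LOG OX1, against 347, 327 and 375 in WT. The lowest LOG OX1 library was 2.07 times the highest WT library. The means of 805 ± 27.0 in LOG OX1 and 349.6 ± 24.2 in WT (SD, n = 3 each) differed 2.30-fold, or by 1.20 on the log2 scale (standard error 0.062).

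CHLNCDRAFT_34202 had 614, 761 and 612 raw counts in LOG OX1, against 235, 261 and 270 in WT. The normalized counts were 675, 701 and 689 in LOG OX1 and 245, 248 and 244 in WT, so the 3 WT libraries were close to identical once scaled. The means were 688 ± 13.1 in LOG OX1 and 246 ± 2.37 in WT (SD, n = 3 each), a 2.80-fold difference or 1.49 on the log2 scale (standard error 0.065). In the gene ontology terms of the study's table, this is the helicase gene with origin binding named as a function.

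CHLNCDRAFT_25737 differed most between the groups of the 4 genes. It had 570, 678 and 547 raw counts in LOG OX1, against 121, 146 and 144 in WT, which are 626, 625 and 615 normalized counts in LOG OX1 and 126, 139 and 130.1 in WT. The lowest LOG OX1 library was 4.43 times the highest WT library. The means of 622 ± 5.89 in LOG OX1 and 132 ± 6.55 in WT (SD, n = 3 each) differed 4.72-fold, or by 2.24 on the log2 scale (standard error 0.077).

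**Figure D1:**
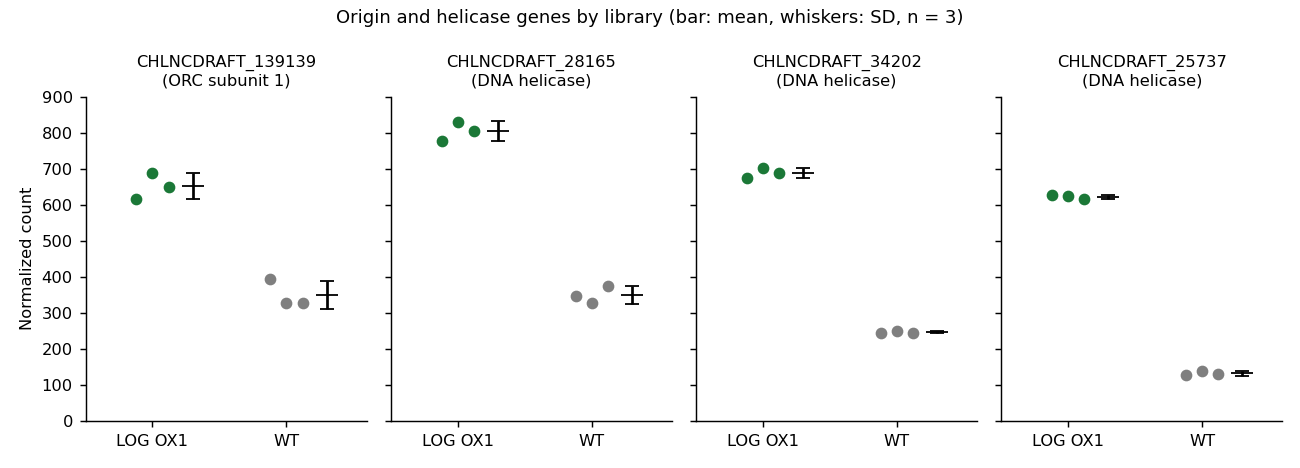
Normalized counts (vertical axis, linear from 0) of the origin gene and the 3 helicase genes in each library, LOG OX1 left and WT right of each panel; points are libraries, and the bar and whiskers give the mean and SD of 3 libraries. In every panel all LOG OX1 points lie above all WT points, and the gap is narrowest for CHLNCDRAFT_139139 (617 to 689 against 327 to 393) and widest for CHLNCDRAFT_25737 (615 to 626 against 126 to 139).

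All 4 genes were called upregulated (1.5-fold or more, with an adjusted p no higher than 0.05), which was fixed by how they were chosen, and the 3 helicase genes also passed 2-fold. Over all 9101 genes tested with edgeR's quasi-likelihood test, 14.0% were called upregulated (1274 genes) and 14.6% downregulated (1328 genes), or 28.6% in either direction, and 6.37% were called upregulated with a fold change of 2 or more. Non-overlapping groups were common in these libraries, with every LOG OX1 library above every WT library for 36.9% of genes tested and below for 37.4%. Ranked by log2 fold change from the largest increase, CHLNCDRAFT_25737 was at place 128 of 9101, CHLNCDRAFT_34202 at 286, CHLNCDRAFT_28165 at 431 and CHLNCDRAFT_139139 at 679. The median log2 fold change of the 4 genes was 1.34, against 0.0010 over all genes tested. With upper-quartile factors in place of TMM factors, the median over all genes moved by 0.11 and upregulated genes made up 61.0% of the called genes, against 49.0% with TMM. In counts from bulk cultures, a larger share of cells in S phase and more of these transcripts per cell cannot be told apart. By flow cytometry at the same culture age and hour, the paper reports a larger share of cells in S phase in LOG OX1 than in WT. Whether that share accounts for the counts of these genes was not tested.

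**Figure D2:**
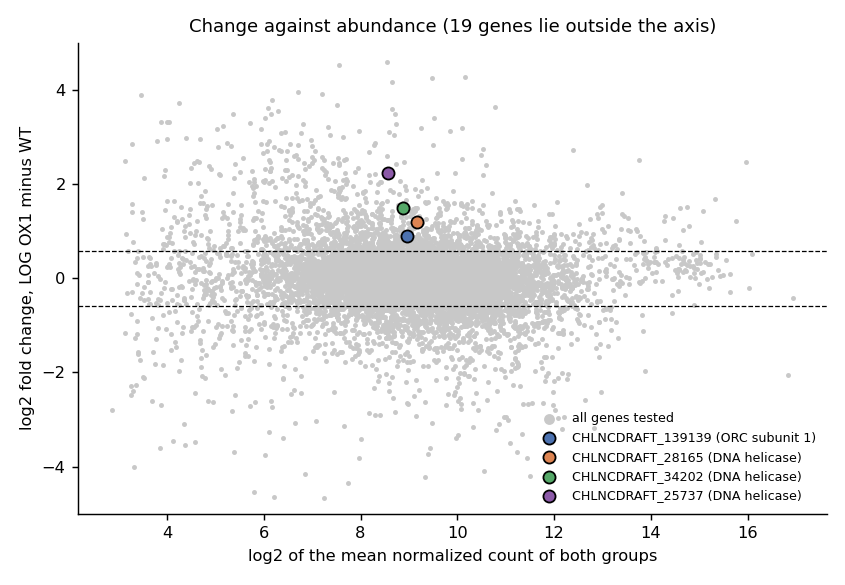
Log2 fold change of LOG OX1 minus WT (vertical axis) against the log2 of the mean normalized count of both groups (horizontal axis) for the genes tested, with the origin and helicase genes as coloured points; dashed lines mark a fold change of 1.5 in either direction. The 4 genes have similar mean counts and lie above the upper line, from 0.90 for CHLNCDRAFT_139139 to 2.24 for CHLNCDRAFT_25737, and 19 genes lie outside the plotted range.

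The counts of the 4 genes differed by unequal factors, so their proportions to each other differed between LOG OX1 and WT. As CPM, the raw counts relative to the total of the library, they summed to 235 to 248 in the LOG OX1 libraries and 92.2 to 99.2 in the WT libraries. The 3 helicase genes alone summed to 181 to 188 CPM in LOG OX1 and 63.1 to 66.1 in WT. CHLNCDRAFT_25737 made up 23.2%, 21.9% and 22.3% of the counts of the 4 genes in LOG OX1 replicates 1, 2 and 3, against 11.4%, 13.3% and 12.1% in WT. The origin gene CHLNCDRAFT_139139 made up 22.9%, 24.2% and 23.5% in LOG OX1, against 35.4%, 31.5% and 30.4% in WT. CHLNCDRAFT_34202 averaged 24.9% ± 0.216 in LOG OX1 and 22.9% ± 0.909 in WT, and CHLNCDRAFT_28165 averaged 29.1% ± 0.215 in LOG OX1 and 32.5% ± 2.06 in WT (SD, n = 3 each). In LOG OX1 the shares were higher for CHLNCDRAFT_25737 and CHLNCDRAFT_34202 and lower for the origin gene and CHLNCDRAFT_28165, without overlap between the groups. How often shares within other sets of genes do not overlap was not computed. The shares of a library add up to the whole, so a larger share of 1 gene lowers those of others. Both genes with lower shares had higher counts in LOG OX1.

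**Figure D3:**
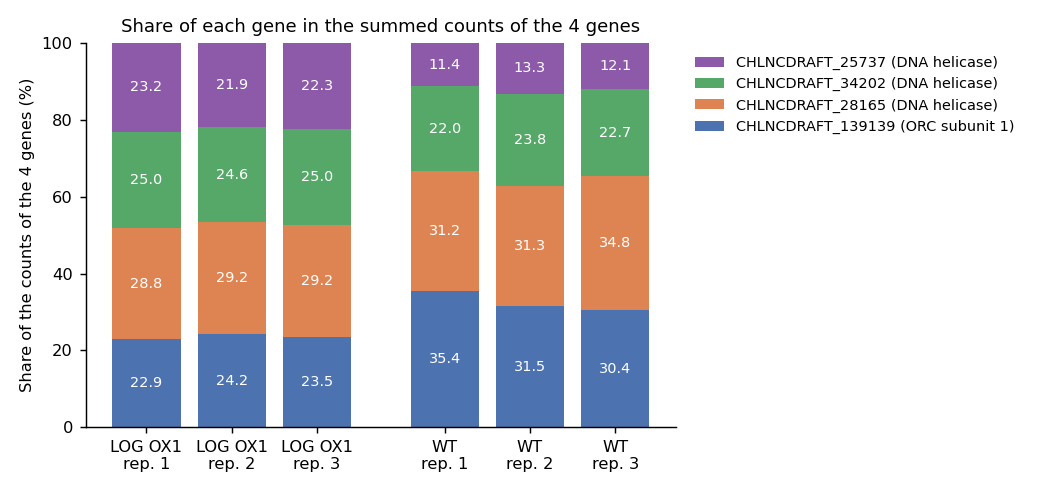
Share (%) of each gene in the summed raw counts of the 4 genes, by library, with the 3 LOG OX1 libraries left and the 3 WT libraries right. The segment of CHLNCDRAFT_25737 takes 21.9% to 23.2% in LOG OX1 and 11.4% to 13.3% in WT, while that of CHLNCDRAFT_139139 takes 22.9% to 24.2% in LOG OX1 and 30.4% to 35.4% in WT.

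Ratios of counts within a library, like the shares, do not depend on the scaling between libraries. They express the same counts in another way, here relative to the origin gene. There were 0.957 ± 0.0552 counts of CHLNCDRAFT_25737 per count of the origin gene in LOG OX1 and 0.381 ± 0.0532 in WT (SD, n = 3 each). The ratio of CHLNCDRAFT_34202 to the origin gene was 1.06 ± 0.0387 in LOG OX1 and 0.709 ± 0.0740 in WT. That of CHLNCDRAFT_28165 to the origin gene was 1.24 ± 0.0278 in LOG OX1 and 1.01 ± 0.132 in WT. The ranges of this last ratio, 1.21 to 1.26 in LOG OX1 and 0.883 to 1.15 in WT, came close to each other without overlapping. In WT, the origin gene had the most counts of the 4 in replicates 1 and 2 and CHLNCDRAFT_28165 in replicate 3, whereas CHLNCDRAFT_28165 had the most in each LOG OX1 library. The counts were not divided by transcript length, so the ratios serve to compare libraries and not to say which transcript was more abundant.

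The helicase genes also differed among themselves. Per count of CHLNCDRAFT_28165 there were 0.774 ± 0.0286 counts of CHLNCDRAFT_25737 in LOG OX1 and 0.379 ± 0.0415 in WT. The ratio of CHLNCDRAFT_25737 to CHLNCDRAFT_34202 was 0.904 ± 0.0208 in LOG OX1 and 0.536 ± 0.0224 in WT (SD, n = 3 each). Gaps between the log2 fold changes were taken from the ratios in each library, with a standard error from the spread of the 3 ratios of each group. The difference of CHLNCDRAFT_25737 exceeded that of CHLNCDRAFT_34202 by 0.76 (standard error 0.040), that of CHLNCDRAFT_28165 by 1.04 (standard error 0.094) and that of the origin gene by 1.34 (standard error 0.13). That of CHLNCDRAFT_34202 exceeded that of the origin gene by 0.58 (standard error 0.095). The smallest gaps were between CHLNCDRAFT_34202 and CHLNCDRAFT_28165, at 0.28 (standard error 0.066), and between CHLNCDRAFT_28165 and the origin gene, at 0.30 (standard error 0.11). Counting error alone gives standard errors of 0.077 to 0.10 for the 6 gaps. It gives 0.10 for CHLNCDRAFT_25737 against CHLNCDRAFT_34202, so the 0.040 of that pair is closer than the depth can resolve. The same holds for CHLNCDRAFT_34202 against CHLNCDRAFT_28165, with 0.066 against 0.081 from counting error. For CHLNCDRAFT_25737 against CHLNCDRAFT_28165, the spread of 0.094 was about that of counting error, 0.095. The 6 gaps come from the contrast by which the genes were chosen and were not tested.

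The spread between replicate cultures entered the choice of genes through the adjusted p of the study's call, which a wide spread makes harder to reach, so it is given as a description. The pooled standard deviation of log2 normalized counts within groups was 0.12 for the origin gene, and 85.8% of the 4278 genes with a mean count within 2-fold of it had a smaller one. CHLNCDRAFT_34202 was at the other end, with 0.022, and 1.01% of 4269 genes of like mean had a smaller one. CHLNCDRAFT_25737 had 0.051 and CHLNCDRAFT_28165 had 0.078, with 13.5% and 54.6% of genes of like mean below them. The coefficient of variation of CHLNCDRAFT_34202 in WT was 0.962%, under the 6.26% that counting error alone gives at its depth, so the closeness of its libraries is below what the depth can resolve. The coefficient of variation of CHLNCDRAFT_25737 was also under counting error, at 0.946% against 4.09% in LOG OX1 and 4.97% against 8.54% in WT. The origin gene varied by 10.8% in WT, against 5.26% from counting error. The standard errors given for the log2 fold changes use a dispersion that edgeR shares between genes, and not these SDs alone.

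The study's gene table places 11 further genes under its terms for DNA replication. Like the 4 described above, they are in that table because the study called them on these libraries, so their count is not independent evidence. In LOG OX1, 10 of the 11 rose and 1 fell by edgeR's quasi-likelihood test, against 14.0% and 14.6% of all genes tested, and their median log2 fold change was 1.12. The origin gene stood next to last among the 14 upregulated genes under these terms, ahead of CHLNCDRAFT_26745, the catalytic subunit of DNA polymerase epsilon, a polymerase of the leading strand in yeast, at 0.87. CHLNCDRAFT_25737 was first, with a value within the standard error of that of CHLNCDRAFT_17561, an uncharacterized protein with few counts, at 2.22 (standard error 0.30).

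Of the genes that act after the helicase, 2 of the 3 listed for primase and DNA polymerase alpha, which start new strands, rose and 1 fell. The DNA polymerase alpha subunit B gene (CHLNCDRAFT_10114) was higher by 1.12 on the log2 scale (standard error 0.10), and the DNA primase large subunit gene (CHLNCDRAFT_8099) by 0.99 (standard error 0.099). A second gene listed as DNA primase, CHLNCDRAFT_139037, was the 1 gene of the 11 that fell. It had 4619, 4506 and 4501 normalized counts in LOG OX1, against 9231, 9470 and 9297 in WT. Every LOG OX1 library was far below every WT library, with a log2 fold change of -1.04 and a standard error of 0.037.

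Among the others, proliferating cell nuclear antigen (CHLNCDRAFT_59751), the clamp that holds polymerases on DNA, was higher by 1.55 on the log2 scale (standard error 0.056), close to that of the helicase gene CHLNCDRAFT_34202. DNA topoisomerase II (CHLNCDRAFT_137783), which releases tangles in copied DNA, had 1.85 (standard error 0.061) and the gene listed as DNA polymerase (CHLNCDRAFT_139024) had 1.95 (standard error 0.076). Both lay between CHLNCDRAFT_34202 and CHLNCDRAFT_25737. Cyclin B2 (CHLNCDRAFT_10568), a mitotic cyclin, had 1.18 (standard error 0.083), a DEAD box helicase (CHLNCDRAFT_142420) had 1.12 (standard error 0.14) and an uncharacterized protein (CHLNCDRAFT_21830) had 0.998 (standard error 0.048).

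**Figure D4:**
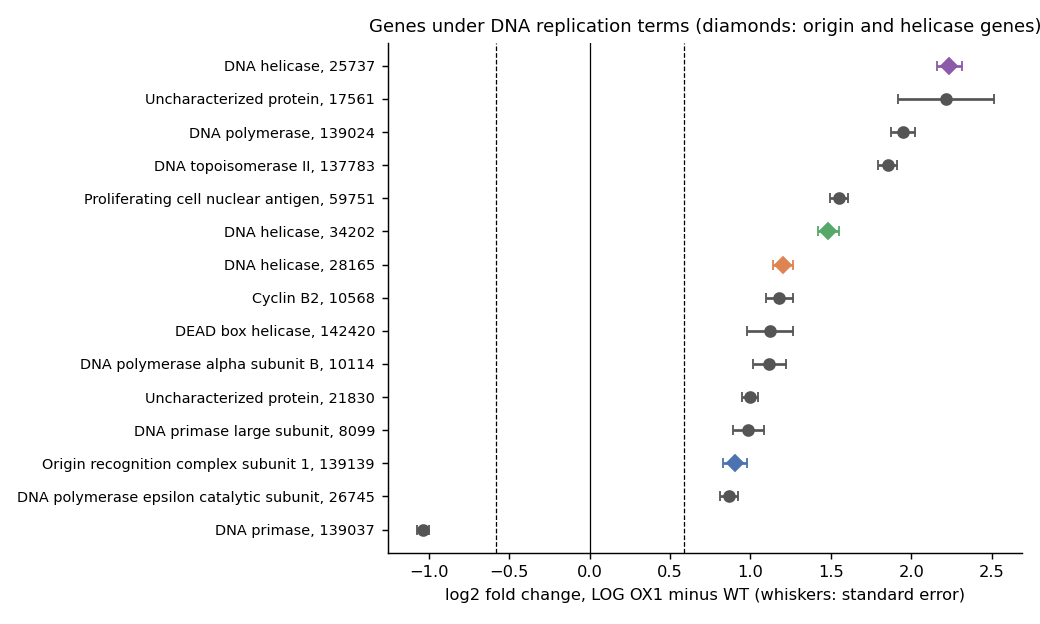
Log2 fold change of LOG OX1 minus WT (horizontal axis, whiskers give the standard error) of the 15 genes under the DNA replication terms of the study's gene table; diamonds are the origin and helicase genes, circles the other 11, numbers are the locus numbers, and dashed lines mark a fold change of 1.5. The helicase genes lie at 1.20, 1.49 and 2.24 and the origin gene at 0.90, and the DNA primase gene CHLNCDRAFT_139037, at -1.04, is alone on the left.

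A search of the protein names in the same table for other steps of replication gave 9 genes besides the origin gene. Of these, 7 rose and 2 fell by the same test, against 14.0% and 14.6% of all genes tested. These too are in the table because the study called them on these libraries, and 7 of the 9 are among the 11 genes above, which leaves 1 further gene that rose and 1 that fell. None of them was named as another origin or licensing factor. The search terms did not match the helicase genes described above, so the search cannot show whether other parts of the replicative helicase were listed. The largest increase was that of CHLNCDRAFT_34102, listed as ribonucleoside-diphosphate reductase, the enzyme that makes deoxyribonucleotides. It had 732, 720.4 and 772 normalized counts in LOG OX1, against 53.2, 76.2 and 54.2 in WT. Its log2 fold change of 3.59, with a standard error of 0.10, was above that of any of the 4 origin and helicase genes. Besides CHLNCDRAFT_139037, the other decrease was that of CHLNCDRAFT_52598, listed as a product with helicase and DNA polymerase activity, at -0.86 on the log2 scale (standard error 0.048). The reference table for this alga gives locus tags without product names, so further origin, MCM or licensing genes that the study did not call were not analysed here.

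For each of the 4 genes, the genes with the most similar pattern were found by the distance between the 6 log2 normalized counts, each centred on its own mean. Nearest to CHLNCDRAFT_25737 was CHLNCDRAFT_55359 (distance 0.13, Pearson's r = 0.999 over 6 libraries), which has no protein name in the study's table, with 496, 509 and 542 normalized counts in LOG OX1 and 107, 114 and 111 in WT. It was followed by CHLNCDRAFT_27284, listed as protein SDA1 (distance 0.14), and by CHLNCDRAFT_142071 (distance 0.15). Nearest to CHLNCDRAFT_34202 were CHLNCDRAFT_145396 (distance 0.049), CHLNCDRAFT_57471 (distance 0.060) and CHLNCDRAFT_29368 (distance 0.060), the last listed as a small chain of ribulose bisphosphate carboxylase, the enzyme that fixes carbon dioxide. Nearest to CHLNCDRAFT_28165 were CHLNCDRAFT_58857 (distance 0.084), CHLNCDRAFT_29505, listed as a tRNA guanine dimethyltransferase (distance 0.0996), and CHLNCDRAFT_145336 (distance 0.10). Nearest to the origin gene CHLNCDRAFT_139139 were CHLNCDRAFT_138328 (distance 0.094), CHLNCDRAFT_137265 (distance 0.15) and CHLNCDRAFT_35537, listed as prolycopene isomerase (distance 0.16). None of the 12 was another of the 4 genes or listed under a DNA replication term. Few genes carry these terms, and most of the 12 had no protein name. With 3 libraries in each of 2 groups, the distance mostly reflects the size of the difference between the groups.

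The genes beside each locus were not used to choose it. In the order of the reference annotation (RefSeq, Chlorella variabilis v 1.0), the 3 genes on either side of each of the 4 loci make 24 genes, and the spans of the nearest neighbours did not overlap those of the 4 genes. Of the 24, 4 were called upregulated, 1 was called downregulated and 19 were not called by edgeR's quasi-likelihood test, against 14.0% upregulated and 14.6% downregulated over all genes tested. None of the 6 genes around CHLNCDRAFT_25737 was called, and their log2 fold changes lay between -0.26 and 0.31. The gene just before CHLNCDRAFT_34202, CHLNCDRAFT_140750, listed as a receptor-like kinase, averaged 157 ± 6.15 normalized counts in LOG OX1 and 34.5 ± 2.54 in WT (SD, n = 3 each). It rose by 2.19 on the log2 scale with a standard error of 0.14 (edgeR, Benjamini-Hochberg adjusted p = 5.29e-10). The gene before that one, CHLNCDRAFT_140749, was also called, at 0.72 (standard error 0.050), while the gene just after CHLNCDRAFT_34202, CHLNCDRAFT_140752, was not, at 0.36 (standard error 0.046).

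Beside the other loci, CHLNCDRAFT_141171 rose by 1.07 on the log2 scale (standard error 0.0995) at the second place after CHLNCDRAFT_28165, where the immediate neighbours on both sides had 0.11 and 0.05. Around the origin gene CHLNCDRAFT_139139, the outermost genes were called in opposite directions, CHLNCDRAFT_139143 at 1.28 (standard error 0.084) and CHLNCDRAFT_54573 at -0.91 (standard error 0.047). The immediate neighbours of the origin gene, CHLNCDRAFT_139137 at 0.47 and CHLNCDRAFT_58933 at -0.23, were not called.

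**Figure D5:**
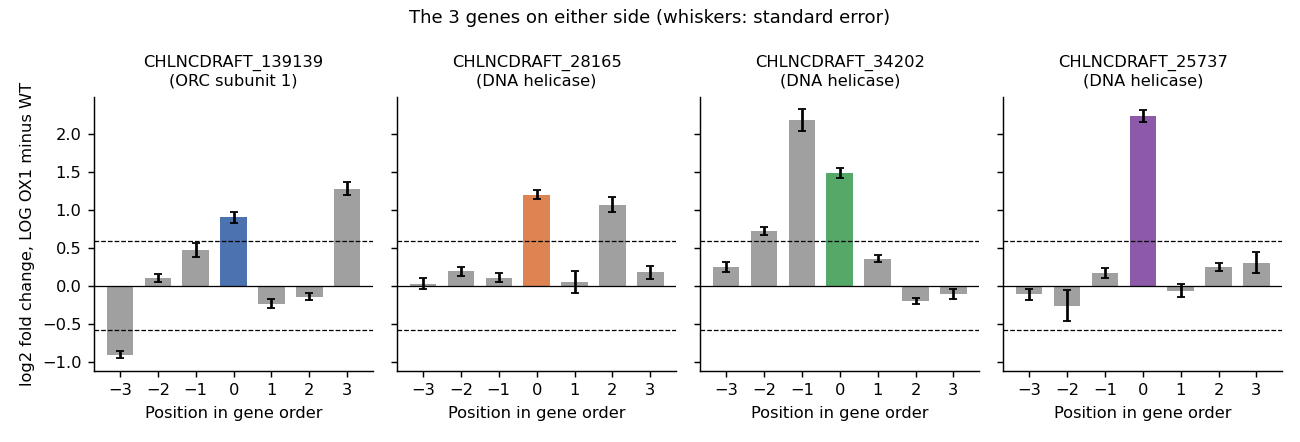
Log2 fold change of LOG OX1 minus WT (vertical axis, whiskers give the standard error) of each origin or helicase gene (coloured, position 0) and of the 3 genes before and after it in the order of the annotation (grey); dashed lines mark a fold change of 1.5. Around CHLNCDRAFT_25737 the grey bars stay between -0.26 and 0.31, while the gene just before CHLNCDRAFT_34202 reaches 2.19.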

How the data were processed

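The authors prepared directional libraries from total RNA, trimmed reads with Trim Galore, aligned them to the NC64A genome from NCBI with HISAT2 at default parameters and used HTSeq for gene counts. What they deposited are raw counts, unnormalized, for 9625 genes in each of 6 libraries. Versions, the strand setting of the counting and the treatment of reads with several matches are not given in the sources used here, so counts of genes with a near-identical copy or an overlapping antisense gene are uncertain. The authors' own comparison columns (fold changes and p-values) in the supplementary tables were not used.

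Counts were compared with edgeR 4.0.16 (limma 3.58.1, R 4.3.3). The authors used the first DESeq, which was not installed. Genes passing filterByExpr with a minimum count of 10 (9101 genes) were fitted with TMM factors, condition as the only term and a prior count of 0.125. The quasi-likelihood F test was adjusted by the Benjamini-Hochberg method over all of them, and a call needed 1.5-fold or more with an adjusted p no higher than 0.05. The standard error was taken as the absolute log2 fold change over the root of F. To normalize, each library's counts were brought to 11369997, the mean effective size, and log2 values for spread and distance had 0.5 added. Pairs of replicates differed by more than counting noise (chi-squared per degree of freedom 2.42 to 7.33), and no libraries were identical. Counts for 9087 genes were simulated from the fitted dispersions, with 200 well-expressed genes changed by at least 2-fold. The test recovered 200 of these 200 genes and called 2 unchanged genes. Far fewer genes changed there than were called in the data, so the number of false calls may differ here.

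The 4 genes, the lists and the tests were chosen with earlier results of these data known. Named genes are the 4 genes, those under the 2 DNA replication terms of the study's table, the 2 largest changes in each direction among genes whose protein name matched replication keywords, the 3 nearest in pattern to each gene, CvarLOG1, and, chosen after the data were seen, the neighbours of each locus and the genes with such a change among them. All 9625 identifiers matched the RefSeq table. A planned list of genes with the MCM family signature and a planned promoter search were not run, since protein and promoter sequences were not used here. Alternatives were DESeq2 1.42.0, RLE and upper-quartile factors, library size only, other filters on low counts, no fold threshold, a block for the replicate number, and each library left out in turn. Other steps used Python 3.11.15, numpy 2.4.6, pandas 2.3.3 and matplotlib 3.10.9.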

Additional observations from a re-analysis of the deposited data

How the results depend on the processing

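Every alternative left the 4 genes higher in LOG OX1 than in WT. Over the fits that dropped 1 library, the log2 value lay between 0.86 and 0.99 for CHLNCDRAFT_139139, 1.15 and 1.26 for CHLNCDRAFT_28165, 1.47 and 1.503 for CHLNCDRAFT_34202, and 2.21 and 2.28 for CHLNCDRAFT_25737. Upper-quartile factors moved CHLNCDRAFT_28165 to 1.31, CHLNCDRAFT_34202 to 1.596 and CHLNCDRAFT_25737 to 2.35, each by more than the small spread of its replicates. Library size only moved CHLNCDRAFT_34202 to 1.46, also by more than that spread. With upper-quartile factors CHLNCDRAFT_139139 moved by a like amount, to 1.01, but its replicates spread more widely. The number of genes called was 2602, between 2615 and 2666 with 1 library left out, and 6536 without a fold threshold. Of the 11 other genes under DNA replication terms, 11 were called in each setting except at least 10 counts in every library, which left 10 because it tests fewer genes. The 9 genes found by keyword were called in each setting. These genes and the 4 above were taken from calls the study made on the same libraries, so this outcome was largely fixed by their choice.

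Replicates shared a number only. The correlation of deviations between same-numbered libraries was -0.035, -0.0078 and -0.10, so the libraries were not treated as pairs, and with the replicate block 2603 genes were called. At these depths, counting error alone gives a coefficient of variation of 8.54% for CHLNCDRAFT_25737 in WT, which limits any statement on its replicate spread there.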
